A study of Mus musculus with 36 samples.

Results

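Dorsal root ganglia (DRG) and spinal cord, called dorsal in the series design text alone, of naive wild-type mice were compared by RNA sequencing in 10 of the 36 libraries of the series, 5 per tissue. The libraries were chosen by their column names in the deposited table, which give tissue, genotype and condition as the sample labels of these 10 do, and no measured value entered the choice. The DRG libraries were A1, A3, B1, B3 and C1, and the cord libraries A5, A7, B5, B7 and C5. Mice of these groups carried no sigma-1 knockout and had received no injury or other treatment, and the series title gives female mice. Libraries used for comparison were 5 of each tissue from naive sigma-1 knockout mice, and 4 of each tissue from wild-type mice after spared nerve injury (SNI), a lesion of sciatic nerve branches. A further 4 of each tissue from injured knockout mice entered only an alternative fit of all 36 libraries. The sources used here do not give age, strain, pooling of ganglia or the segments taken, and no label ties a library to an animal of its own. The p-values therefore measured the spread between libraries, which may be technical. A number in the column names tied each DRG library to 1 cord library (A1 with A5, A3 with A7, B1 with B5, B3 with B7, C1 with C5).

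The DRG lies outside the spinal cord and holds the cell bodies of sensory neurons, each wrapped by satellite glia, with axons sheathed by Schwann cells. The central branches of these neurons end in the dorsal horn of the cord, where excitatory and inhibitory interneurons process touch, temperature and pain, and where oligodendrocytes, astrocytes and microglia replace the glia and macrophages of the ganglion. RNA of the sensory cell bodies is thus sampled in the DRG, while the cells that receive their input are sampled in the cord.

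Estimated reads per library ran from 22692750 to 27269039 in DRG and from 22500808 to 24761922 in cord. Levels are given as CPM, the usual depth-scaled read counts, after TMM scaling (trimmed mean of M values, which corrects for RNA composition), with the standard deviation (SD) over the 5 libraries of a tissue. Differences are log2 DRG minus cord, with a standard error (SE). The SE was worked back from the test, as the size of the difference over the square root of the F statistic. It is approximate, and for genes with few reads in either tissue it can be narrower than counting error. A gene was called higher in a tissue at a fold above 2 with an adjusted p below 0.05, the adjustment running over the whole table. The spread between libraries was wider in DRG (common biological coefficient of variation 0.155) than in cord (0.0892).

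Library identities matched their tissue labels. The sensory neuron determinant Prdm12 was at 33.1 to 63.3 CPM in DRG and 0 to 0.23 in cord. The oligodendrocyte gene Mog was at 249 to 273 CPM in cord and 0.0858 to 0.61 in DRG. Motor neuron genes, which mark the ventral horn, were present in the cord libraries: Chat, the enzyme that makes acetylcholine, was at 10.4 to 15.8 CPM and the vesicular acetylcholine transporter Slc18a3 at 11.9 to 21.6 CPM, against 3 reads of Slc18a3 over all DRG libraries. The samples' own labels say spinal cord without a region, so the samples are called cord here. Genes typical of 1 tissue were also read in the other, unevenly between libraries, and the source of these reads was not tested. In DRG, summed peripheral myelin genes were at 6530 to 7546 CPM and fibroblast and matrix genes at 2576 to 4877 CPM. The peripheral myelin list holds Mal, called higher in cord, and Sox10 and S100b, not called, so its sum is not of DRG-typical genes alone. Cord libraries A5 and B5 had 2846 and 2793 CPM of summed peripheral myelin genes against 2141 to 2421 in the other 3, and 1096 and 779 CPM of fibroblast and matrix genes against 410.5 to 505.5. DRG library B1 was the highest of its tissue for Mog, Olig2, Opalin, Slc6a5 and Slc32a1, all near 0 in DRG, with Mog at 0.61 CPM against 0.0858 to 0.209. DRG library C1 stood apart in red cell, neutrophil and perineurial genes, given below.

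The tissues differed in most of the genes measured. Of 18763 genes tested, 14424 (76.9%) passed the adjusted p at any fold, 39.2% being higher in DRG and 37.6% higher in cord. With a fold above 2, 3270 genes (17.4%) were higher in DRG and 3130 (16.7%) in cord. These shares are the background for every count of list members below. The libraries of the tissues did not overlap for 3129 of the DRG calls and 3056 of the cord calls, and for 12481 of all genes tested (66.5%). The median log2 difference over all genes was 0.04. A fold above 16 was reached by 383 genes in DRG and 453 in cord. In bulk tissue, fewer cells of a type and less RNA per cell cannot be told apart.

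**Figure D1:**
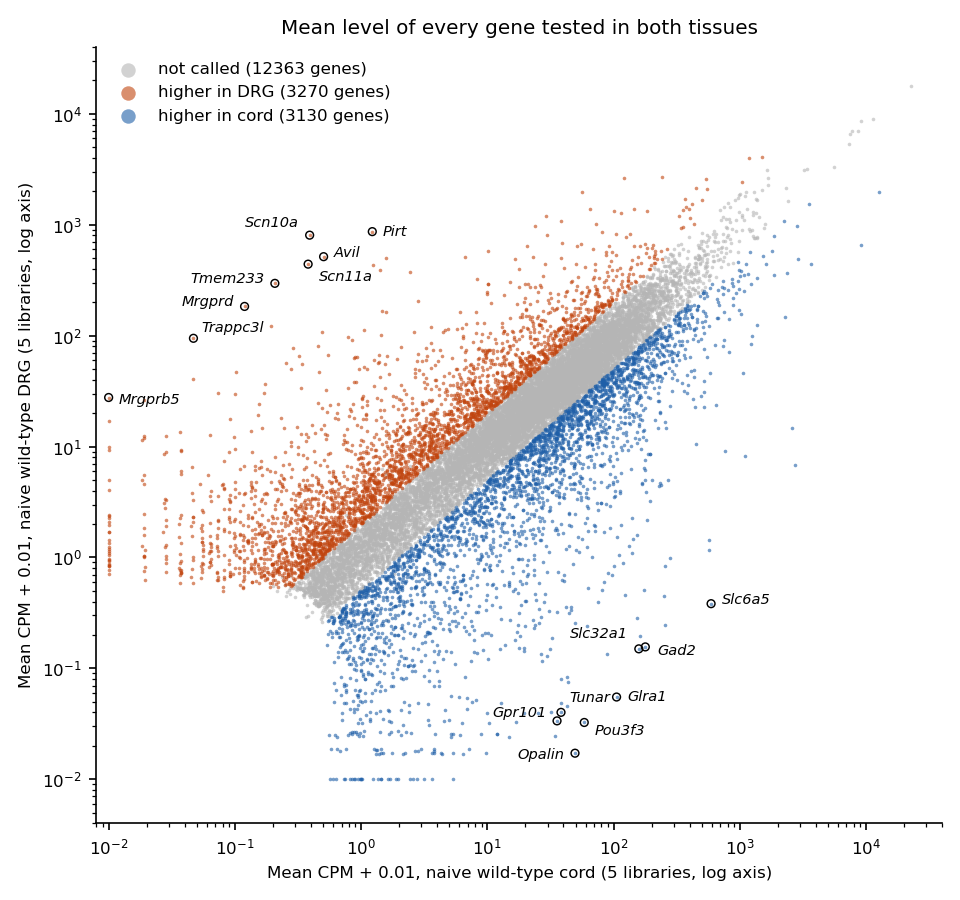
Mean CPM of each of the 18763 genes tested in naive wild-type cord (x axis) and DRG (y axis), both on log axes with 0.01 added, 5 libraries per tissue. Red points are the 3270 genes higher in DRG, blue points the 3130 higher in cord, and circles mark the 8 largest differences in each direction among protein-coding genes with at least 20 CPM. Scn10a and Pirt lie far above the diagonal and Slc6a5 and Gad2 far below it.

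The 8 largest differences in each direction were taken among called protein-coding genes with at least 20 CPM in the higher tissue and no overlap between libraries. Towards DRG, Scn10a, which encodes the sodium channel Nav1.8 of pain-sensing neurons, was at 799, 671, 979, 954 and 619.5 CPM in DRG libraries A1, A3, B1, B3 and C1, and at 0.898, 0.0462, 0.874, 0.0419 and 0.0452 CPM in cord libraries A5, A7, B5, B7 and C5 (log2 difference 11.04 ± 0.42, adjusted p = 8.41e-10). Cord libraries A5 and B5 thus held nearly all of the cord signal, and without these libraries the difference was 13.98. Mrgprd, a receptor of non-peptidergic skin nociceptors, followed the same order in cord, at 0.225, 0, 0.322, 0 and 0 CPM, against 139.9 to 230.5 CPM in DRG (10.67 ± 0.34, and 11.54 without B5). It had no reads in cord libraries A7, B7 and C5. Pirt, a regulator of TRP channels, was at 866 ± 121 CPM in DRG and 1.22 ± 0.365 in cord (9.48 ± 0.18). Avil, an actin-binding protein of sensory neurons, differed by 10.01 ± 0.26, and Tmem233, a transmembrane protein, by 10.51 ± 0.33 (11.29 without A5). Trappc3l, related to a subunit of the TRAPP trafficking complex, was at 94.5 ± 4.27 CPM in DRG and had reads in 1 cord library, A7, at 0.185 CPM (11.17 ± 0.24, and 14.16 without A7). A fitted difference against libraries with no reads, as for Trappc3l without A7, depends on the prior count and is no bound. Mrgprb5, of the Mas-related receptor family, had 3627 reads in DRG and 0 in cord, so it was at least 1049-fold higher, taking 3 reads over the 5 cord libraries as the floor. Mas-related genes have near copies, and how shared reads were split among them was not stated, which makes their values uncertain.

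Towards cord, the 8 genes by the same rule included 4 of inhibitory transmission. Slc6a5, the glycine transporter of glycinergic terminals, was at 561, 615, 594, 589 and 605 CPM in cord and 0.335, 0.161, 1.26, 0.0429 and 0.0696 CPM in DRG (−10.56 ± 0.37, adjusted p = 2.74e-10). The highest DRG value was that of library B1, and without it the difference was −11.91. Gad2, which makes GABA, was at 0.146 ± 0.0647 CPM in DRG and 178 ± 6.45 in cord (−10.19 ± 0.11). Slc32a1, the vesicular transporter of both inhibitory transmitters, differed by −10.02 ± 0.29 (−11.78 without B1), and Glra1, a glycine receptor subunit, by −10.99 ± 0.23 (−12.04 without B1). Opalin, a membrane protein of oligodendrocytes, had 1 read in DRG, in library B1, and 5529 in cord, a ratio of 6373 (exact 95% interval 1143 to 251756, for counting error only), and a fitted difference of −13.19 without B1. The transcription factor Pou3f3 had 3 reads in DRG and 6538 in cord (ratio 2512, interval 859 to 12184), and the orphan receptor Gpr101 had 3 and 3979 (ratio 1529, interval 523 to 7416). Tunar was at 38.3 ± 0.692 CPM in cord and 0.0301 ± 0.0471 in DRG (−10.05 ± 0.22, and −11.30 without B1).

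The called genes were also ranked by CPM, which is not scaled by gene length. DRG was led by Map1b (4105 ± 1146 against 1492 ± 82.2 CPM in cord), a microtubule-associated protein of axons. Next came the tubulin gene Tuba1a (4016 ± 393 against 1188 ± 89.9), which has close relatives, and then Prune2, the secreted glycoprotein gene Fstl1, and the lipid carriers Apod and Apoe (1.23 ± 0.07). Fstl1 was at 2335 to 2959 CPM in DRG and 108 to 132 in cord. Cord was led by Mbp (12774 ± 537 against 1952 ± 225 CPM), a major protein of central myelin. Also among the cord calls with the most CPM were Sparcl1, the fatty acid desaturase Scd2, the mitochondrial ribosomal RNA mt-Rnr2 and the presynaptic gene Snap25 (−1.55 ± 0.07).

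To show what the promoters of the most divergent genes look like, the 120 bases before the start site are printed for the 4 largest differences in each direction that had a promoter in the table used (RefSeq, GRCm38.p6). Sequences run 5′ to 3′ along the gene, and capitals mark CG dinucleotides, the sites of DNA methylation in mammals.
Mrgprb5 (higher in DRG, chr7:48168986-48169105, minus strand): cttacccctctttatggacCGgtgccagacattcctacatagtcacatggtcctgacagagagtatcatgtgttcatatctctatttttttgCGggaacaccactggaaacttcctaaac
Trappc3l (higher in DRG, chr10:34037477-34037596, plus strand): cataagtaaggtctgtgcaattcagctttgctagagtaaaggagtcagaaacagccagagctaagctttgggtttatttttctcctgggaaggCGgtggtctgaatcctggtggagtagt
Scn10a (higher in DRG, chr9:119719033-119719152, minus strand): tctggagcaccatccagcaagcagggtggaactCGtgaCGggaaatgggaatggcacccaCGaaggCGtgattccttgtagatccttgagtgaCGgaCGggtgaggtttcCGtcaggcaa
Mrgprd (higher in DRG, chr7:145314715-145314834, plus strand): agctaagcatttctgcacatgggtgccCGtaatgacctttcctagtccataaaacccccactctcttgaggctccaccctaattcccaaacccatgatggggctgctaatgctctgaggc
Opalin (higher in cord, chr19:41077114-41077233, minus strand): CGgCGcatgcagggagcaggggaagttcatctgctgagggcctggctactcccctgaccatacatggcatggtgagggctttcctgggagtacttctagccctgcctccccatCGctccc
Pou3f3 (higher in cord, chr1:42695648-42695767, plus strand): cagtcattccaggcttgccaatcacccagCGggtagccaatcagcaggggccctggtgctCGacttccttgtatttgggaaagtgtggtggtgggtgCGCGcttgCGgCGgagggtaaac
Slc6a5 (higher in cord, chr7:49910179-49910298, plus strand): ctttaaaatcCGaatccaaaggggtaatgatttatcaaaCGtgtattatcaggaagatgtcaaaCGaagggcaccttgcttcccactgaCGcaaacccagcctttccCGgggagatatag
Gpr101 (higher in cord, chrX:57503758-57503877, minus strand): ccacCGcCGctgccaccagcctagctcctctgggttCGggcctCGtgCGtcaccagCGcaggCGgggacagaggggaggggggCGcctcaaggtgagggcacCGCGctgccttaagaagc
Within the 250 bases before the start, these windows held 2 (Mrgprb5), 3 (Trappc3l), 8 (Scn10a) and 2 (Mrgprd) CG dinucleotides for the DRG genes, and 4 (Opalin), 15 (Pou3f3), 11 (Slc6a5) and 13 (Gpr101) for the cord genes. Of the genes tested, 12896 had a promoter listed, and the first start listed was used. The median number of CG dinucleotides was 8 over the 2168 promoters of genes higher in DRG, 14 over the 2184 of genes higher in cord and 16 over the 8544 not called. A ratio of observed to chance-frequency CG above 0.6, a usual mark of CpG islands, was found in 37% of DRG promoters, 53.8% of cord promoters and 67.7% of those not called. For folds above 16 it was found in 14.9% of 249 promoters in DRG and 35.8% of 299 in cord. Among protein-coding genes alone the shares were 38%, 55.3% and 68.9% in the same order. The letters TATAAA, on either strand, stood in 10.7% of DRG promoters, 7.19% of cord promoters and 7.28% of promoters of all genes tested. TGTGGT, the core letters bound by Runx factors, stood in 12.5%, 10.1% and 10.9%. These are descriptions of the windows, and no binding or methylation was measured.

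Genes of sensory neuron identity were higher in DRG for 12 of 15 members, with none higher in cord and a median log2 difference of 2.63. Prdm12 was at 47.3 ± 12.8 CPM in DRG (8.96 ± 0.36). Isl1, a homeodomain factor kept in mature sensory neurons, was at 59.7 ± 4.06 CPM in DRG and 1.25 ± 0.147 in cord (5.58 ± 0.09). Pou4f1, the factor Brn3a, was at 69.2 ± 13.6 and 11.2 ± 1.18 CPM (2.63 ± 0.13), so the cord held a measurable level. Prph, an intermediate filament of small sensory and motor neurons, differed by 4.79 ± 0.20, and Tubb3, neuronal tubulin, by 1.88 ± 0.09.

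Nociceptor genes formed the list with the largest share of DRG calls among the neuronal lists: 20 of 21 were higher in DRG, with a median log2 difference of 5.75. Their summed level was 2861 to 3718 CPM in DRG and 230.4 to 260.4 CPM in cord. Calca, which encodes the peptide CGRP, had the most CPM of the named members. It was at 1112, 1196, 1201, 1298 and 1147 CPM in DRG against 23.9 to 35.1 in cord (5.35 ± 0.11). The heat and capsaicin channel Trpv1 was at 108 ± 20.5 CPM and 0.482 ± 0.271 (7.78 ± 0.27). The ATP receptor P2rx3 differed by 6.82 ± 0.16. Nppb, a peptide of itch neurons, had 3 reads over the cord libraries and 1717 in DRG (ratio 497, exact 95% interval 169.6 to 2410.2, fitted difference 8.71 ± 0.35, and 9.67 without C5). Ret, the signalling receptor for GDNF ligands, and the semaphorin receptor Plxnc1 were present in both tissues, at 96.6 ± 9.27 and 23.8 ± 0.784 CPM in cord, and were higher in DRG by 2.02 ± 0.17 and 3.54 ± 0.09.

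Touch and proprioceptor genes were divided, with 6 of 16 higher in DRG and 6 higher in cord. Piezo2, the mechanically gated channel of touch, was at 508 ± 77.7 CPM in DRG and 6.67 ± 0.737 in cord (6.25 ± 0.13). Ntrk3, the neurotrophin-3 receptor of proprioceptors, was higher in DRG by 1.32 ± 0.05, as were Etv1 and Spp1. Ntrk2, the BDNF receptor, was higher in cord (−1.34 ± 0.09), and so were Whrn, Necab2 and Mafa. Pvalb, a calcium buffer of proprioceptors and of some cord interneurons, was at 119 ± 22.2 CPM in DRG and 69.2 ± 10.1 in cord (0.78 ± 0.13), short of the 2-fold rule.

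The 10 sodium channel alpha subunit genes fell into opposite sets: 6 were higher in DRG and 4 in cord. Scn9a (Nav1.7) was at 593, 594, 584, 613 and 516 CPM in DRG and 9.57, 9.29, 11.9, 9.72 and 9.9 CPM in cord (5.85 ± 0.09). Scn11a (Nav1.9) was at 322 to 558 CPM in DRG, with cord values of 0.674, 0.0462, 0.874, 0.168 and 0.0904 that were highest in A5 and B5 (10.21 ± 0.38, and 11.97 without these libraries). Scn7a, an atypical sodium sensor of glia and sensory neurons, differed by 5.35 ± 0.15. Scn4a, the skeletal muscle channel, was at a low level, 4.63 ± 1.34 CPM in DRG, and differed by 5.91 ± 0.39. The channels of central neurons were higher in cord. Scn2a differed by −2.11 ± 0.08 and Scn3a by −1.67 ± 0.08. Scn1a (−1.08 ± 0.05) and Scn8a (−1.03 ± 0.13) lay just past the rule, and both fell short of 2-fold with library totals or upper quartile scaling. Scn8a was also short of it without A3 and without C1. Per kilobase of exon, the DRG order was Scn7a 132, Scn10a 101, Scn11a 74.3, Scn9a 45.4, Scn1a 21.7 and Scn8a 10.4 CPM, and the cord order began with Scn1a 45.8, Scn8a 21.3 and Scn2a 11.6. Of the 4 beta subunit genes, 3 were higher in cord, Scn2b by most (−3.18 ± 0.15), and the fourth, Scn3b, was at 92 ± 12 CPM in DRG and 56.5 ± 3 in cord (0.70 ± 0.08), not past 2-fold.

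**Figure D2:**
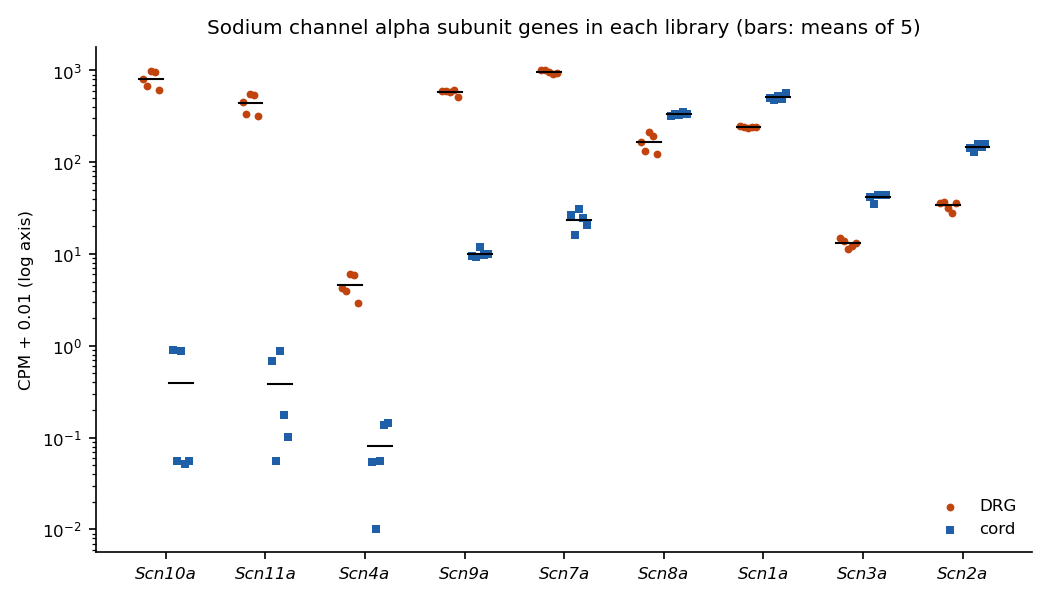
CPM plus 0.01 on a log axis for 9 of the 10 sodium channel alpha subunit genes, 1 point per library, DRG as red circles and cord as blue squares, with bars at the means of 5. Genes run from the largest DRG excess at the left to the largest cord excess at the right. Cord libraries A5 and B5 are the 2 high cord points of Scn10a, at 0.898 and 0.874 CPM.

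Of 21 other transduction and pacemaker channel genes, 9 were higher in DRG and 5 in cord. The proton-gated channel Asic3 was at 65.9 ± 9.99 CPM in DRG and 0.315 ± 0.221 in cord (7.69 ± 0.23), while Asic4 went the other way (−5.83 ± 0.22). Ano3 of the anoctamin family was higher in DRG by 2.29 ± 0.06, and the pacemaker channel Hcn2 was higher in cord (−3.53 ± 0.16). Of 15 calcium channel subunit genes, 2 were higher in DRG, namely Cacnb3 (1.60 ± 0.13) and Cacna2d1, the target of gabapentin (1.14 ± 0.08), and 6 were higher in cord. Cacna2d1 was at 292, 260.4, 315, 315 and 236 CPM in DRG and 117 to 140.0 in cord. The T-type channel genes Cacna1g and Cacna1i were among the cord calls (−4.28 ± 0.24 and −3.30 ± 0.17).

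Among peptide and receptor genes listed for the first pain synapse, a few peptide genes were higher in DRG while most receptor genes were higher in cord. RNA of whole tissue does not place them at a synapse. Of 22 ligand genes, 6 were higher in DRG, 14 in cord and 2 were not called (median −4.22). The 6 were Nppb, Nmb, Calca, Calcb, Tac1 and Bdnf. Tac1, which encodes substance P, was at 244, 244, 219.7, 269 and 209.7 CPM in DRG and 37.4, 34.1, 41.1, 32.5 and 37.5 CPM in cord (2.70 ± 0.08). Its receptor gene Tacr1 was at 21.2, 23.8, 23.6, 23.8 and 22.9 CPM in cord and 0.126 to 0.383 in DRG (−6.42 ± 0.17). Nmb, neuromedin B, was higher in DRG by 5.38 ± 0.08 and its receptor Nmbr higher in cord (−4.38 ± 0.19). Bdnf was higher in DRG (1.39 ± 0.10). The natriuretic peptide receptor genes Npr1, Npr2 and Npr3, listed for Nppb, were not called in either direction. For CGRP, the receptor gene Calcrl did not differ beyond its error (17.6 ± 3.94 and 16.8 ± 2.16 CPM, 0.07 ± 0.14, adjusted p = 0.688). Its partner Ramp1 was higher in cord (−3.69 ± 0.22) and Ramp2, which turns Calcrl into an adrenomedullin receptor, was higher in DRG (1.34 ± 0.12). Adcyap1, the peptide PACAP, was at 80.1 ± 11.1 CPM in DRG and 40.8 ± 1.99 in cord (0.97 ± 0.09), which passed 2-fold with library totals, with upper quartile factors, without A3 and without C1, and its receptor Adcyap1r1 was higher in cord (−5.76 ± 0.09). Gal, galanin, was at 13 ± 1.42 and 8.77 ± 0.931 CPM (0.56 ± 0.10).

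Peptides made by cord interneurons formed the other side. Tac2, the precursor of neurokinin B, was at 42.4 ± 2.97 CPM in cord and 0.0741 ± 0.0549 in DRG, with no overlap. Cck, Grp, Sst and Npy differed by −6.60 ± 0.18, −7.42 ± 0.33, −4.84 ± 0.08 and −5.82 ± 0.30. The 3 opioid precursor genes listed were higher in cord, Penk at 164 ± 11.1 against 9.45 ± 1.79 CPM, Pdyn at 28.3 ± 1.9 against 0.386 ± 0.225 and Pnoc, which encodes nociceptin, at 18.1 ± 1.74 against 0.604 ± 0.198. Ucn3, urocortin 3, had 150 reads in cord and 0 in DRG, at least 57.6-fold higher. Smaller differences were those of Nts (−1.69 ± 0.19) and Npff (−1.16 ± 0.18). Of 31 receptor genes tested, 2 were higher in DRG, 18 in cord and 11 were not called (median −1.56). Npy2r, a presynaptic receptor of sensory fibres, was higher in DRG (1.66 ± 0.09). Among opioid receptors, Oprk1 (−2.73 ± 0.12) and Oprl1 (−1.67 ± 0.10) were higher in cord. Oprm1 was at 13.9 ± 1.63 CPM in DRG and 7.47 ± 1.19 in cord (0.89 ± 0.12), past 2-fold only with library totals or upper quartile scaling. Oprd1 was at 6.09 to 15.1 CPM in DRG and 8.78 to 11.2 in cord, with the libraries overlapping (0.05 ± 0.20, adjusted p = 0.833).

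**Figure D3:**
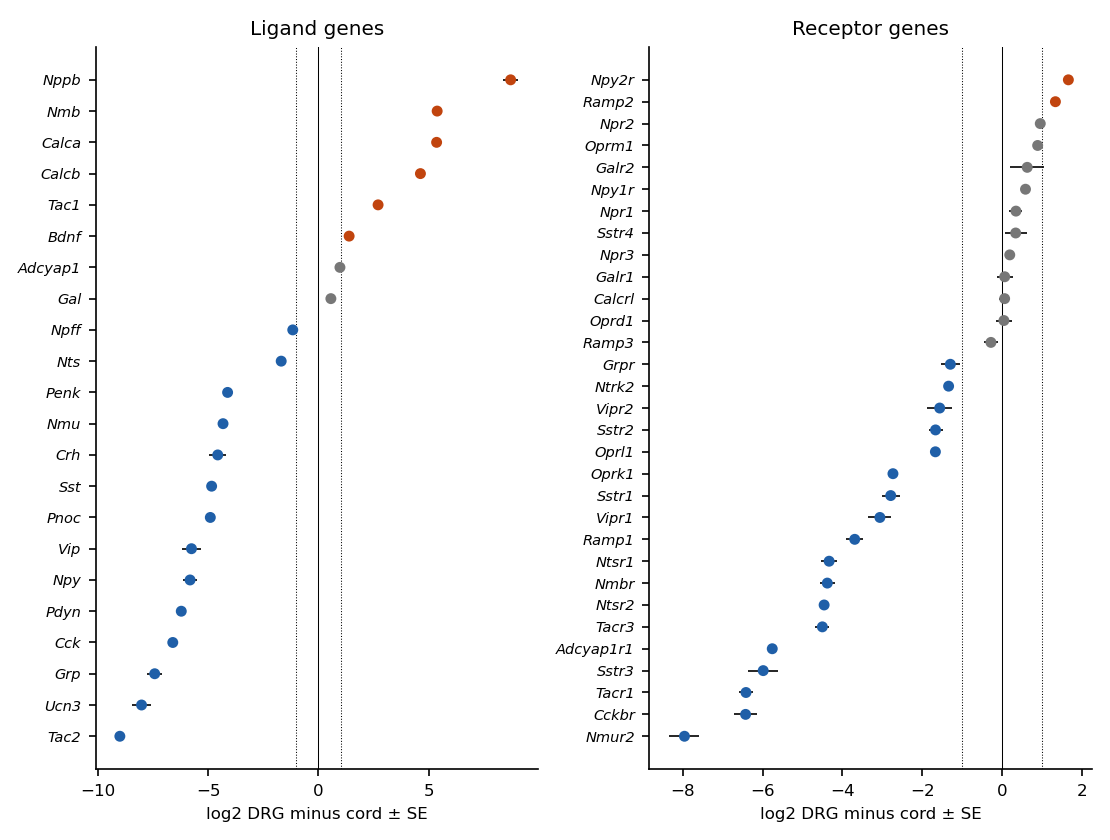
Log2 DRG minus cord with its SE for 22 peptide and trophic ligand genes (left) and 31 receptor genes (right), from 5 libraries per tissue. Red is higher in DRG, blue higher in cord and grey not called, and dotted lines mark a fold of 2. The ligand genes spread to both sides, 6 towards DRG and 14 towards cord, while 18 of the receptor genes lie towards cord.

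Genes of inhibitory neurons were higher in cord for 14 of 15 members (median −6.84), and their summed level was 131 to 181 CPM in DRG and 1845 to 1908 in cord. Pvalb was the member not called. Gad1 was at 257 ± 4.49 CPM in cord and 0.832 ± 0.274 in DRG (−8.25 ± 0.12). Of 20 GABA and glycine receptor genes, 15 were higher in cord and none in DRG. DRG nonetheless held several subunits, among them Glrb at 184 ± 7.36 CPM and Gabra2 at 112 ± 4.7, whose differences of −1.08 ± 0.05 and −1.01 ± 0.05 fell short of 2-fold with library totals or upper quartile scaling. Gabra3 differed by −2.65 ± 0.06 and Gabrb1 by −3.81 ± 0.08. The potassium-chloride exporter Slc12a5 (KCC2), which keeps chloride low in central neurons, was at 555, 605, 565, 591 and 560.3 CPM in cord and 1.38, 1.01, 1.79, 0.644 and 0.904 CPM in DRG (−8.95 ± 0.16). The importer Slc12a2 (NKCC1) was at 219 ± 16.4 CPM in DRG and 239 ± 8.17 in cord, with overlapping libraries (−0.12 ± 0.06, adjusted p = 0.0707). Slc12a7 was higher in DRG (2.51 ± 0.08).

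Genes of excitatory dorsal horn neurons were higher in cord for 10 of 19 members and in DRG for 4. The 10 include Tac2, Cck, Sst, Nts, Grp and Ucn3, already counted among the ligand genes above. The vesicular glutamate transporter genes differed among themselves: Slc17a7 (VGLUT1) was at 51.2, 47, 66.2, 69.1 and 40.9 CPM in DRG and 0.494, 0.277, 0.322, 0.21 and 0.362 CPM in cord (7.35 ± 0.23), Slc17a8 (VGLUT3) was higher in DRG (1.93 ± 0.20), and Slc17a6 (VGLUT2) was at 233 ± 23 CPM in DRG and 311 ± 12.8 in cord (−0.42 ± 0.07), short of 2-fold. Tlx3, a selector of glutamatergic fate in the dorsal horn, was higher in DRG (1.93 ± 0.17), and the nuclear receptor Rora in cord (−1.65 ± 0.05). Of 25 glutamate receptor and scaffold genes, 20 were higher in cord. They included Grin1 (−2.18 ± 0.12), Gria2 (−2.45 ± 0.07) and the scaffold Dlg4 (−2.09 ± 0.11). The 1 member higher in DRG was Grik1, a kainate receptor subunit, at 289, 267, 321, 312 and 263 CPM in DRG and 21.3, 21.3, 22.5, 21 and 19.2 CPM in cord (3.78 ± 0.07).

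Nicotinic and serotonin receptor genes were divided, 9 of 20 higher in DRG and 7 in cord. Htr3a, the serotonin-gated channel, was at 78.5 ± 7.1 CPM in DRG and 2.05 ± 0.275 in cord (5.25 ± 0.10), and Chrna6 at 62.6 ± 18.6 and 0.865 ± 0.235 (6.17 ± 0.28). Htr1d, a target of triptans, was higher in DRG (3.01 ± 0.12). Htr2c was at 174 ± 4.24 CPM in cord and 0.499 ± 0.324 in DRG (−8.41 ± 0.19), and Chrna4 was higher in cord (−5.09 ± 0.12). Of 16 general neuronal genes, 9 were higher in cord and 3 in DRG, the latter being Stmn2 (1.80 ± 0.08), Elavl4 (1.48 ± 0.07) and Uchl1 (1.23 ± 0.11). Of 16 motor neuron and ventral cord genes, 10 were higher in cord. The 3 higher in DRG, Isl1, Isl2 (6.16 ± 0.25) and Prph, are also genes of sensory neurons.

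Hox genes, which encode position along the body axis, were higher in cord for 24 of 32 members tested (median −1.77). Their summed level was 208 to 226 CPM in DRG and 916 to 929 in cord. Hoxb8 was at 167, 171, 161, 169.5 and 165 CPM in cord and 4.86, 4.67, 3.44, 5.67 and 4.56 CPM in DRG (−5.17 ± 0.10). Hoxb9 and Hoxc10 differed by −3.29 ± 0.07 and −3.35 ± 0.08. The 1 member higher in DRG was Hoxd1, a gene known for its role in nociceptor circuits, at 5.78, 5.4, 8.68, 7.38 and 5.18 CPM in DRG and 0.853, 0.786, 0.69, 0.796 and 0.949 CPM in cord (2.98 ± 0.18).

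Each tissue was high in the myelin genes of its own glia. Peripheral myelin genes were higher in DRG for 15 of 18 members (median 2.41). Pmp22, a membrane protein of compact myelin, was at 2352, 2104, 2178, 1903 and 2149 CPM in DRG and 567, 441, 556, 367 and 339 CPM in cord (2.24 ± 0.14), and periaxin, Prx, differed by 2.09 ± 0.15. Mal, shared by both myelins, was the 1 member higher in cord (−1.38 ± 0.06). Central myelin genes were higher in cord for 18 of 20 members (median −3.90), and none were higher in DRG. Mobp was at 2754 ± 209 CPM in cord and 6.78 ± 4.72 in DRG (−8.65 ± 0.47), and Mog at 257 ± 9.47 and 0.238 ± 0.213 (−9.99 ± 0.20). Mbp, which Schwann cells also make, differed by less (−2.71 ± 0.09). Olig2 was at 42.7 ± 2.61 CPM in cord and 0.0356 ± 0.0621 in DRG, while Sox10, a factor of both glial lineages, was at 47.2 ± 7.72 CPM in DRG and 57.2 ± 4.23 in cord, with overlapping libraries. Of 14 oligodendrocyte precursor genes, 8 were higher in cord, among them the receptor Gpr17 (−4.83 ± 0.10).

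Astrocyte genes were higher in cord for 18 of 18 members (median −3.99), and the summed level was 389.9 to 457 CPM in DRG and 8219 to 9247 in cord. The glutamate transporter Slc1a2 was at 2321, 2379, 2820.4, 2520.0 and 2828 CPM in cord and 17.3, 10.2, 14.3, 20.3 and 11.4 CPM in DRG (−7.46 ± 0.20). Gfap (−7.08 ± 0.22) and the water channel Aqp4 (−6.36 ± 0.10) followed. Satellite glia, the counterpart in the ganglion, gave no such clear picture, with 6 of 17 listed genes higher in DRG and 6 in cord. Fabp7, a lipid binding protein, was at 602, 611, 515, 589 and 889 CPM in DRG, highest in C1, and 44.2 to 59.1 in cord (3.64 ± 0.15), and Apoe, Cdh19 (2.23 ± 0.08) and Ednrb (1.18 ± 0.07) were higher in DRG. Kcnj10, the potassium channel Kir4.1 of both glial types, was at 99.4 ± 14.1 CPM in DRG and 1241 ± 60.9 in cord (−3.64 ± 0.10), and glutamine synthetase, Glul, differed by −2.10 ± 0.06. Ependymal and cilia genes were higher in cord for 12 of 15 members, among them Foxj1 (−2.10 ± 0.11).

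Microglia genes leaned towards cord and macrophage genes towards DRG. Of 17 microglia genes, 10 were higher in cord and 2 in DRG (median −1.10). Sall1, a factor that maintains microglial identity and is also made by other cells, was at 40.4 ± 2.93 CPM in cord and 0.68 ± 0.266 in DRG (−5.86 ± 0.15). P2ry12 (−1.78 ± 0.08) and Tmem119 (−1.53 ± 0.15) differed by less, with 7.39 to 9.01 and 3.99 to 7.51 CPM in DRG. Macrophage genes were higher in DRG for 15 of 17 members (13 to 15 under alternatives that kept the rule for a call), with none higher in cord. Lyz2 was at 152, 232, 111, 133 and 258 CPM in DRG and 27.3 to 40.8 in cord (2.45 ± 0.25), and Mrc1, the mannose receptor, and the monocyte receptor Ccr2 differed by 2.55 ± 0.24 and 4.08 ± 0.22. MHC class II genes were higher in DRG for 10 of 11 members, with Cd74 at 74 to 199.5 CPM in DRG and 5.61 to 17.3 in cord (3.80 ± 0.37). Of 9 lymphocyte genes tested, 7 were higher in DRG, among them the B cell genes Cd79a and Cd79b, and Trac, a T cell receptor gene, was higher in cord at 1.19 ± 0.399 against 0.243 ± 0.0967 CPM. The T cell genes Cd3e, Cd3d, Cd3g and Cd8a did not pass the filter on low counts.

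Genes of cells from blood or marrow were mostly higher in DRG and varied between libraries. Neutrophil genes were higher in DRG for 11 of 12 members. S100a9 was at 51.7, 59.2, 25.8, 46.7 and 158 CPM in DRG, with C1 highest, and 0.808, 8.64, 0.644, 1.09 and 2.94 CPM in cord, with A7 highest (4.61 ± 0.78, 4.02 without C1 and 5.64 without A7). Red cell genes were higher in DRG for 8 of 9 members. Their summed level was 3542 CPM in C1 against 752.4 to 1569 in the other DRG libraries and 240.8 to 573.1 in cord. The alpha and beta globin genes come in near-identical pairs whose reads may be split. Without C1 the counts stayed at 11 of 12 and 8 of 9. Mast cell genes were higher in DRG for 6 of 8 members tested. Mcpt4 had 2224 reads in DRG and 0 in cord (at least 643-fold higher), at 17.1, 19.9, 7.32, 12.1 and 29.1 CPM in the DRG libraries, and Tpsb2 had 1301 and 0 (at least 376-fold higher). The part of blood left in the tissue in these differences was not tested.

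**Figure D4:**
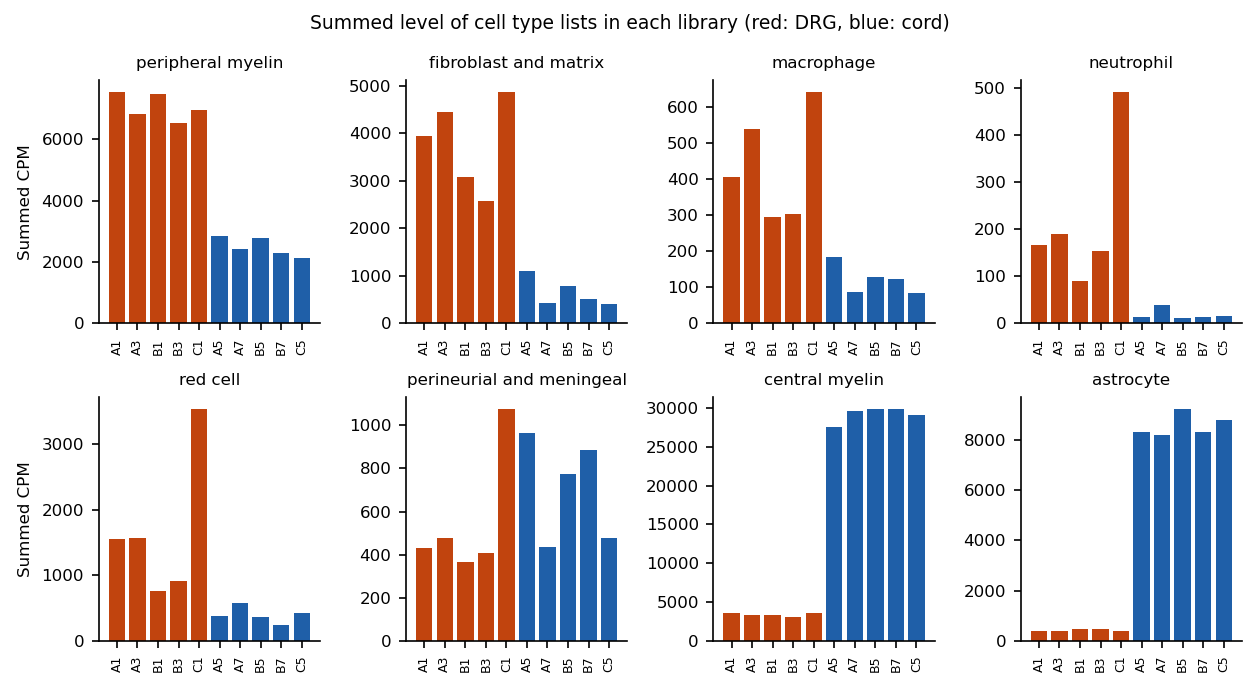
Summed CPM of the tested members of 8 gene lists in each of the 10 libraries, DRG in red and cord in blue, on linear axes that start at 0. C1 is the highest DRG library for neutrophil, red cell and perineurial genes, and A5 and B5 are the highest cord libraries for peripheral myelin and fibroblast genes.

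Connective tissue genes were mostly higher in DRG, and vessel genes differed by list. Of 18 fibroblast and matrix genes, 15 were higher in DRG. Dcn, decorin, was at 1334, 1539, 926, 966 and 1654 CPM in DRG and 179, 77.7, 149, 94.3 and 76.6 CPM in cord (3.48 ± 0.30), and the collagen genes Col1a1, Col1a2 and Col3a1 differed by 2.74 ± 0.40, 2.54 ± 0.35 and 2.70 ± 0.51. In cord, A5 and B5 were again the highest for Dcn. Perineurial and meningeal genes were higher in DRG for 6 of 12 members, with Cldn1 at 34.8 to 83.9 CPM in DRG and 5.41 to 9.79 in cord (2.91 ± 0.28), although their summed levels overlapped between the tissues. Genes of leaky and general endothelium were higher in DRG for 10 of 14 members, among them Vwf (2.11 ± 0.20) and Pecam1 (1.95 ± 0.10). Prox1, a lymphatic factor that spinal neurons also express, was higher in cord (−6.89 ± 0.12). Of 14 central barrier endothelium genes, 3 were higher in DRG and 2 in cord. The barrier gene Cldn5 was at 11.1 ± 1 CPM in DRG and 8.83 ± 0.743 in cord (0.33 ± 0.09), and the efflux pump gene Abcg2 was higher in DRG (2.74 ± 0.06). Mural cell genes were higher in DRG for 6 of 12 members, among them Acta2 (4.13 ± 0.25), and fat cell genes for 5 of 5 tested, while the other 5 listed, among them the defining genes Adipoq, Plin1 and Lep, did not pass the filter on low counts. Of 12 skeletal muscle genes, 2 were higher in DRG, a count that ran from 0 to 4 under other settings.

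**Figure D5:**
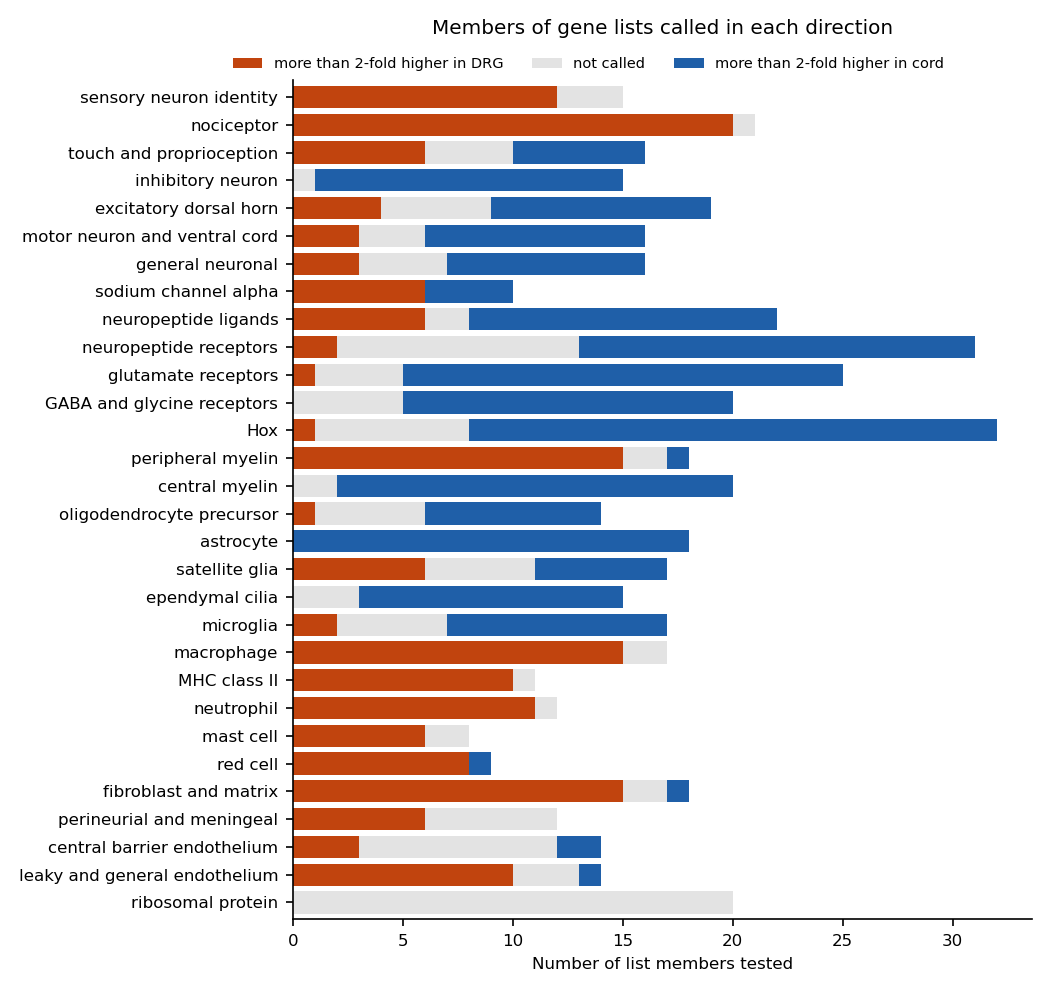
Number of tested members of 30 gene lists that were more than 2-fold higher in DRG (red), not called (grey) or more than 2-fold higher in cord (blue), from 5 libraries per tissue. Over all genes tested, 17.4% were higher in DRG and 16.7% in cord. The nociceptor, macrophage and neutrophil bars are mostly red and the astrocyte, central myelin and inhibitory neuron bars mostly blue.

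Ribosomal, respiratory and sterol genes were rarely called at a fold above 2, though most differed at any fold. None of 20 ribosomal protein genes was called in either direction (median 0.46), though 16 were higher in DRG at any fold and 4 passed 2-fold with library totals or upper quartile factors. Leaving out 1 library gave 0 to 3 calls, all in DRG. Of 17 respiratory chain genes, 2 were higher in cord, Sdha (−1.26 ± 0.05) and Uqcrc1 (−1.03 ± 0.10), the second short of 2-fold with library totals or upper quartile scaling. At any fold, 11 respiratory chain genes were higher in cord and 2 in DRG. Their summed levels did not overlap, at 3748 to 4171 CPM in DRG and 5090 to 5675 in cord. Of 14 sterol synthesis genes, 1 was higher in DRG, Fdps (1.23 ± 0.05), and at any fold 8 were higher in DRG and 4 in cord. Over all genes tested, 39.2% were higher in DRG and 37.6% in cord at any fold. Cell division genes were higher in DRG for 6 of 9 members (5 or 6 under alternatives that kept the rule for a call). Mki67 was at 7.57 to 36.5 CPM in DRG and 1.84 to 3.14 in cord. Immediate early genes were divided, Arc (−2.82 ± 0.10) and Fos (−1.64 ± 0.16) being higher in cord and Atf3 (2.60 ± 0.23) in DRG. Complement and chemokine genes were also divided, 5 of 16 higher in each tissue, with Cx3cl1 higher in cord (−5.52 ± 0.11) and Ccl2 in DRG (3.60 ± 0.35). Of 20 axon adhesion and guidance genes, 5 were higher in DRG and 8 in cord. Of 8 sigma receptor and partner genes, the inositol trisphosphate receptor Itpr3 was higher in DRG (92.3 ± 13.5 against 11.5 ± 1.88 CPM), and Itpr1 (−1.78 ± 0.06), Itpr2 (−1.60 ± 0.14) and Grin1 in cord.

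The same comparison in libraries not used above gave largely the same genes. In naive knockout mice, 15.9% of 18411 genes were higher in DRG and 15.8% in cord. Of its DRG libraries, 2 (A2 and A4) carry wild type in their titles and knockout in their genotype field. Without both, 3011 and 3140 genes were called higher in DRG and cord, against 2935 and 2916 with them. Of the 3038 naive wild-type DRG calls tested in both, 2543 (83.7%) were also called in knockout mice, which was 88.5% of the knockout calls, and 3 were called the other way. For cord the numbers were 2489 of 3038 (81.9%, and 87.6% of the knockout calls), with 0 the other way. In injured wild-type mice, 18.2% of 18983 genes were higher in DRG and 16.8% in cord. Shared calls were 2758 of 3168 for DRG (87.1%, and 86.4% of the injured calls) and 2725 of 3083 for cord (88.4%, and 87.2%).

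Between naive and injured mice, 14 genes changed side. They were cord calls in naive and DRG calls in injured mice, and none went from DRG to cord. Nts, neurotensin, was at 7.24 ± 2.57 CPM in naive DRG and 23.3 ± 1.48 in naive cord, and at 349.8 ± 97.2 and 24 ± 1.63 CPM after injury (SD, n = 4), so its difference went from −1.69 ± 0.19 to 3.86 ± 0.19. Npy, neuropeptide Y, went from −5.82 ± 0.30 to 1.83 ± 0.16, its level in DRG being 0.261 ± 0.209 CPM in naive and 123 ± 16.9 in injured mice. Csf1, the growth factor of microglia and macrophages, went from −1.65 ± 0.08 to 1.03 ± 0.16. The others were Crh, Fgf3, Mmp16, Glis3, Lamb3, Wif1, Tnnc1, Chrna5, Kcnh4, Dmbx1 and Wdr63, all but Mmp16 below 5 CPM in both naive tissues. Among the settings that kept the rule for a call, the naive cord call was lost for Wif1 and Tnnc1 under 5 each. Both lost it with library totals and with upper quartile factors. Wif1 also lost it without B1, without B3, and without A5 and B5. Tnnc1 also lost it with limma, without A7 and without B7, and Chrna5 lost it without B1. The 14 genes were chosen for this change of side, so their values are a description.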

How the data were processed

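Poly(A) RNA was sequenced from stranded libraries, per the labels' protocols. FastQC 0.11.5, HISAT2 and RSEM with build GRCm38 are named in the submitters' processing notes, without their roles, the annotation or the use of strand in counting. The authors deposited expected counts per gene, estimates that need not be whole, for 55487 genes, and TMM-normalised signal for 52999, used only for the limma alternative. In the deposited column of library E1 (unit other), 9150 values had decimal commas and 1 a letter, and these were restored.

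Counts were rounded and tested with edgeR 4.0.16 (R 4.3.3): filterByExpr, TMM factors (1.026 to 1.056 in DRG, 0.945 to 0.973 in cord) and the robust quasi-likelihood F test of 5 against 5 libraries, with Benjamini-Hochberg adjustment over all genes tested. Per-kilobase levels used exon lengths of GENCODE M21. DESeq2 1.42.0 and limma 3.58.1 (pseudocount 1) were alternatives. Named genes were the 8 largest differences in each direction (protein-coding, at least 20 CPM, no overlap). To these came the 6 called genes with the most CPM per tissue, and up to 4 called members per list in its main direction and 3 in the other. The rule also named the sodium channel alpha subunits, and the neuropeptide ligands and receptors. Some genes that this rule names are not reported here. Prdm12, Trpv1, P2rx3, Slc17a6, Mog, Olig2, Sox10, Tmem119, Ccr2, Slc12a2, Cldn5, Scn3b, Pvalb and the genes that changed side after injury, other than Nts, Npy, Csf1 and Crh, were added after their values were seen, and some further list members are named without values. The members and gene lists were chosen with earlier results of these data known.

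The pairing of the tissues was by the number in the column names. Deviations of same-numbered libraries from their group means correlated at 0.267 (A1 with A5), 0.163 (A3 with A7), 0.119, 0.391 and 0.107 over 11661 genes. Differently numbered pairs ran from −0.352 (B3 with A5) to 0.184 (C1 with A5), so the ranges overlapped. For A1, A3, B1 and B3 the same-numbered cord library gave the highest correlation, while C1 correlated more with A5 than with C5. No label says what the number marks. Intervals for single genes cover counting error only.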

Additional observations from a re-analysis of the deposited data

Results flagged for a closer look

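In 36 of 470 sets of 5 libraries tested, the highest or lowest library lay apart from the others by Dixon's criterion at the 95% level. Chance gives about 1 in 20 where values are independent and normally spread. These sets are not independent, since the sums contain named genes. For Opalin in DRG and Trappc3l in cord all other libraries were at 0, which meets the criterion by itself. The count is therefore a description. The sets were the CPM of the genes named above and the summed CPM of the lists, in 1 tissue at a time. DRG library A1 was the highest for Wdr63 at 0.251 CPM. DRG library B1 was the highest for Asic4 at 0.251, Cacna1i at 8.79, Mog at 0.61, Olig2 at 0.143, Opalin at 0.0359, Slc32a1 at 0.538 and Slc6a5 at 1.26 CPM. DRG library B1 was the lowest for Abcg2 at 99.9 CPM. DRG library C1 was the highest for Cd79a at 5.81, Fabp7 at 889, Mrgprb5 at 44.3, S100a9 at 158, the sum of neutrophil genes at 492 and the sum of perineurial and meningeal genes at 1077 CPM. Cord library A5 was the highest for Abcg2 at 18.6, Cd74 at 17.3 and the sum of MHC class II genes at 79.9 CPM. Cord library A5 was the lowest for the sum of satellite glia genes at 13789 CPM. Cord library A7 was the highest for Asic3 at 0.693, S100a9 at 8.64, Snap25 at 3201, Spp1 at 97.7, Trappc3l at 0.185, Tubb3 at 474, the sum of general neuronal genes at 10995 and the sum of neutrophil genes at 39.7 CPM. Cord library A7 was the lowest for Nmbr at 3.05 and the sum of fat cell genes at 6.89 CPM. Cord library B5 was the highest for Hoxb9 at 108, Mog at 273 and Scn9a at 11.9 CPM. Cord library B7 was the highest for Glis3 at 3.23 CPM. Cord library C5 was the highest for Bdnf at 10.8 and Oprk1 at 26.1 CPM. Cord library C5 was the lowest for Csf1 at 32.1 CPM. The positions of B1 and C1 among the DRG libraries and of A7 among the cord libraries recurred most often. No cause was tested.

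In 14 genes the tissue difference was called in opposite directions in naive and injured wild-type mice. They were chosen for that change in these libraries, so no p is given and the values are descriptions. After injury the log2 difference DRG minus cord was 1.03 for Csf1, 1.07 for Wdr63, 1.09 for Dmbx1, 1.20 for Kcnh4, 1.26 for Mmp16, 1.48 for Tnnc1, 1.60 for Glis3, 1.61 for Chrna5, 1.77 for Lamb3, 1.80 for Fgf3, 1.83 for Npy, 1.98 for Crh, 1.98 for Wif1 and 3.86 for Nts, where each was below −1 in naive mice.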

How the results depend on the processing

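The counts of 3270 genes higher in DRG and 3130 higher in cord stayed within 1.5 times under every alternative run except a fold above 4, which left 1410 and 1425. Leaving out 1 library gave 3173 to 3436 for DRG, 3184 to 3274 for cord and 14238 to 14547 at any fold. With the replicate block (the pairing by number) the counts were 3266 and 3152, and no call of a gene named with values changed. Library totals and upper quartile factors moved the median log2 difference of all genes to 0.16, from 0.04, and the DRG share of 2-fold calls from 51.1% to 56.6% and 56.9%. Without cord libraries A5 and B5, an alternative chosen after the data were seen, 3621 and 3209 genes were called. A stricter test, against a fold of 2 itself, kept 5076 of the 6400 calls. It was left out of the checks of named genes and lists. Over 189 named genes and all alternatives that kept the rule for a call, 3552 values kept direction and call. In 8 genes 26 values fell short of the call, and in 2 genes 6 values newly passed it. The 7 reversals concerned genes that were not called: without 1 library, Calcrl ran from −0.0305 (without A3 or C1) to 0.146 and Oprd1 from −0.136 (without B3) to 0.177, below 0 also without A7, B1 or B7, and Oprd1 was at −0.0252 by limma. The cause was not tested. Depth limits the genes with 0 to 3 reads in a tissue, whose folds are bounds or wide intervals.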
